A study of Mus musculus with 3 samples.

Results

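The interferon regulatory factors are a family of transcription factors, and 8 of its genes, Irf1, Irf2, Irf3, Irf4, Irf5, Irf7, Irf8 and Irf9, were examined here in mouse CD8 T cells. They were found through the platform annotation of the arrays, which gave 1 of these 8 symbols alone to 14 of the 45101 probe sets. The 8 genes are among 18194 genes named on the arrays. RNA of CD8 T cells from a tissue labelled MLN, the mesenteric lymph node in the study, was hybridised to 3 arrays, 1 for each of 3 groups. The VILLIN-HA/CL4-TCR group, and likewise Villin-HA + CL4-TCR, joins CD8 T cells that recognise the influenza protein hemagglutinin (HA) with HA driven by the promoter of villin, a gene of gut epithelium. The CL4-TCR group carries the HA-specific T cell receptor without HA, and this transgenic receptor is common to all 3 groups. The submitters list ordinary, activated and regulatory CD8 T cells, but no label ties either HA group to activation or to regulation. The sources used here do not give age, treatment, the time of exposure to HA or any pooling of animals.

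Interferon regulatory factors share a DNA-binding domain with conserved tryptophans that reads GAAA repeats, and they differ in what switches them on. Irf3 and Irf7 are activated by sensors of viral nucleic acid and drive the interferon genes, Irf9 belongs to the complex that answers type I interferon, and Irf1 and Irf2 act in opposition on many of the same sites. In T cells, Irf4 is induced by signals of the T cell receptor and works with Batf and Jun proteins in effector differentiation, while Irf8 is better known from B cells, dendritic cells and macrophages.

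The values are MAS5 signals, a linear brightness per probe set, with every array scaled to a trimmed mean of 150. Signals under 31.7, the median over all probe sets and arrays, were raised to it as a floor, and a difference between 2 arrays was counted when their floored signals were apart by at least 2-fold, 1 on the log2 scale. Each gene was read by its probe set with the highest mean signal. With 1 array per group no difference has a replicate check, no p-value is given, and differences are between arrays. The disagreement between probe sets of 1 gene is the error at hand: its SD on the log2 scale was 0.43 for VILLIN-HA/CL4-TCR against CL4-TCR, 0.65 for Villin-HA + CL4-TCR against CL4-TCR. Between the HA groups it was 0.61. Both comparisons with CL4-TCR share that array. In RNA of many cells, fewer cells with a transcript and less transcript per cell cannot be told apart.

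The arrays differed in ways other than their labels. The ratio of 3′ to 5′ signal of the Gapdh control was 46.2 in VILLIN-HA/CL4-TCR cells, 3.35 in Villin-HA + CL4-TCR cells and 18.4 in CL4-TCR cells. The same ratio of the beta-actin control was 2.46, 1.80 and 1.98 on these arrays, a much narrower spread. Xist, an RNA of female cells, had a signal of 2.5 in VILLIN-HA/CL4-TCR cells, 1339 in Villin-HA + CL4-TCR cells and 5442.5 in CL4-TCR cells. Eif2s3y, a gene of the Y chromosome, had 1496 in VILLIN-HA/CL4-TCR cells, 746.9 in Villin-HA + CL4-TCR cells and 13.4 in CL4-TCR cells. Both transcripts were thus above the floor in Villin-HA + CL4-TCR cells, so that RNA carried transcripts of female and of male cells. In each of the other groups 1 of them was above the floor. How both came to be in 1 sample is not given, and the sex of the mice and the group cannot be told apart. All 9 CD8 T cell markers with a probe set lay above the floor on each array, and their summed signal was 16913 in VILLIN-HA/CL4-TCR cells, 17523 in Villin-HA + CL4-TCR cells and 18126 in CL4-TCR cells. Cd4 lay below the floor on each. Of 6 stroma and endothelium markers, 4 lay above the floor in Villin-HA + CL4-TCR cells, 1 in CL4-TCR cells and 0 in VILLIN-HA/CL4-TCR cells. Their sums were 722.2, 100.3 and 81 in that order. The part of such cells in other signals of the Villin-HA + CL4-TCR array was not tested.

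All 8 genes lay above the floor on all 3 arrays. Irf4, Irf8 and Irf5 were higher in VILLIN-HA/CL4-TCR cells, and Irf7 and Irf1 lower, than in CL4-TCR cells, which makes 5 of 8 counted. The share counted among all 11260 measured genes was 14.1%, with 7.43% higher and 6.63% lower. Irf4, Irf8, Irf5 and Irf7 were higher in Villin-HA + CL4-TCR cells, and Irf2 lower, than in CL4-TCR cells, again 5 of 8, against 21.4% of 12196 measured genes (11.9% higher and 9.53% lower). Between the HA groups, Irf4 and Irf8 were higher and Irf7 lower in VILLIN-HA/CL4-TCR cells than in Villin-HA + CL4-TCR cells, 3 of 8, against 15.1% of 12081 genes (6.13% higher and 8.95% lower). The median log2 difference of the 8 genes was -0.41 for VILLIN-HA/CL4-TCR minus CL4-TCR, where all measured genes had -0.04. It was 0.52, with 0.06 over all genes, for Villin-HA + CL4-TCR compared to CL4-TCR. Between the HA groups the 8 genes had 0.10 and all genes -0.06.

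The count depends on the 2-fold line for several members. Of the 24 log2 differences, 4 lay within 0.05 of it: Irf1, Irf5 and Irf9 in VILLIN-HA/CL4-TCR cells and Irf2 in Villin-HA + CL4-TCR cells, each against CL4-TCR. When all arrays were given the same median, the log2 difference of all genes shifted by 0.25 between the HA groups and by -0.19 for Villin-HA + CL4-TCR cells set beside CL4-TCR cells. The share of higher genes among those counted was then 67.3% instead of 40.7% in the first case and 38.2% instead of 55.6% in the second.

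**Figure D1:**
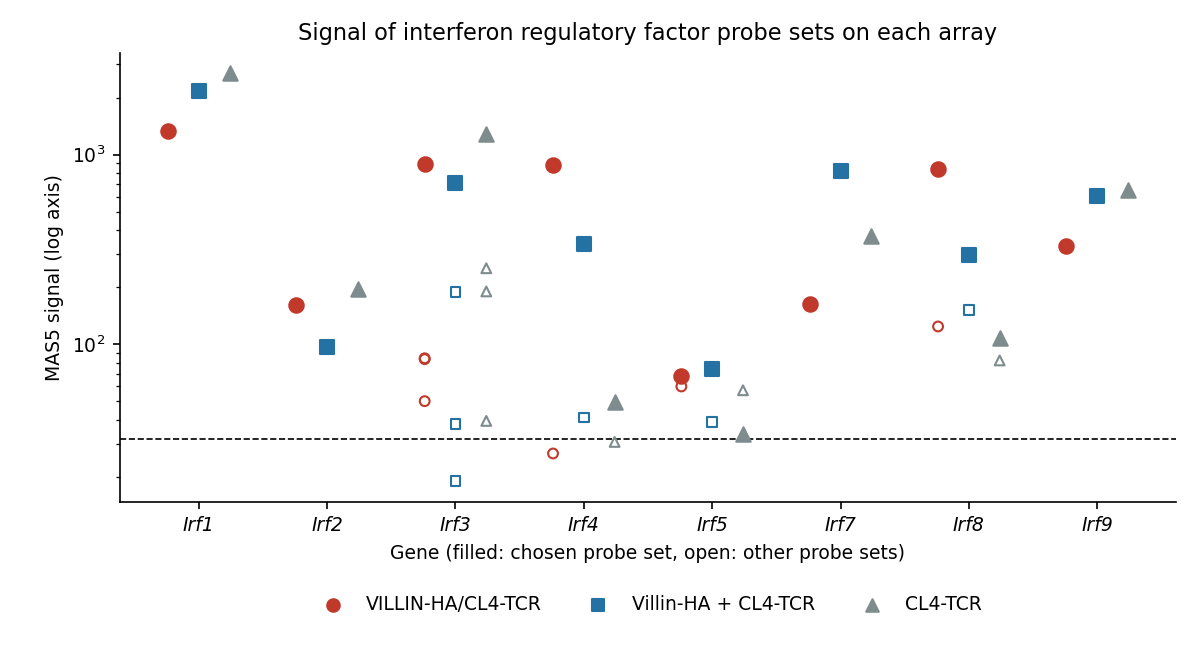
MAS5 signal on a log axis (vertical) of every probe set of the 8 genes (horizontal), with 1 symbol per array, filled for the chosen probe set and open for the others; the dashed line is the floor of 31.7. The filled symbols of Irf4 and Irf8 are highest in VILLIN-HA/CL4-TCR cells and lowest in CL4-TCR cells. Their open symbols are highest in Villin-HA + CL4-TCR cells, and only that of Irf8 is also lowest in CL4-TCR cells. Irf7 is highest in Villin-HA + CL4-TCR cells.

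Among the chosen probe sets, that of Irf4 had the largest differences of the family from the CL4-TCR array. By this probe set Irf4 had a signal of 886.9 in VILLIN-HA/CL4-TCR cells, 338.8 in Villin-HA + CL4-TCR cells and 49.6 in CL4-TCR cells. Both HA arrays stood well above the CL4-TCR array, whose signal was close to the floor. The fold was 17.9 (log2 difference 4.16) in VILLIN-HA/CL4-TCR cells and 6.83 (2.77) in Villin-HA + CL4-TCR cells, and the VILLIN-HA/CL4-TCR array was 2.62-fold above the Villin-HA + CL4-TCR array (1.39). Its other probe set, drawn from the same accession, had 26.6, 41.2 and 30.6 in VILLIN-HA/CL4-TCR, then Villin-HA + CL4-TCR, then CL4-TCR cells. That probe set hardly left the floor on any array, and by the median of both probe sets the difference between the HA arrays was 0.51, short of 2-fold.

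Irf8, a partner-dependent factor related to Irf4, followed the same order of arrays. Its chosen probe set had a signal of 837.7 in VILLIN-HA/CL4-TCR cells, 297.5 in Villin-HA + CL4-TCR cells and 107.6 in CL4-TCR cells. Against CL4-TCR the fold was 7.79 (log2 2.96) for VILLIN-HA/CL4-TCR and 2.76 (1.47) for Villin-HA + CL4-TCR. A second probe set gave smaller differences, with signals of 124.3, 151.7 and 82.3 in VILLIN-HA/CL4-TCR, then Villin-HA + CL4-TCR, then CL4-TCR cells and log2 differences of 0.59 and 0.88 from CL4-TCR. The probe sets thus agreed that the CL4-TCR array was lowest and disagreed on which HA array was highest. By their median the HA arrays differed by 0.60 on the log2 scale, which is within the probe set SD of 0.61.

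Cells other than T cells also make Irf8, Irf4 and Irf5, so their markers are given beside these genes. Of 15 markers of monocytes, macrophages and neutrophils, 9 lay above the floor in VILLIN-HA/CL4-TCR cells, 11 in Villin-HA + CL4-TCR cells and 6 in CL4-TCR cells, with summed signals of 1740, 1984 and 379. Csf1r, the macrophage growth factor receptor gene, had signals of 384.1 in VILLIN-HA/CL4-TCR cells, 125 in Villin-HA + CL4-TCR cells and 40.9 in CL4-TCR cells, and Lyz2, a lysozyme gene, had 817.3, 312.2 and 84.5 on the same arrays, both in the order of the chosen Irf8 probe set. Other markers of this list ran otherwise: S100a8, a neutrophil and monocyte gene, had 12.9 in VILLIN-HA/CL4-TCR cells, 738.7 in Villin-HA + CL4-TCR cells and 9.5 in CL4-TCR cells. S100a9 had 26.3, 258.8 and 14.6 on these arrays, and Cd68 had 49.1, 106.3 and 39.5. Between the HA groups, 3 of 13 measured markers of the list were higher in VILLIN-HA/CL4-TCR cells (Csf1r, Lyz2 and C1qb) and 3 lower (S100a8, S100a9 and Cd68). Plasma cells are known for Irf4, and of their 5 markers 3 lay above the floor in VILLIN-HA/CL4-TCR cells, 2 in Villin-HA + CL4-TCR cells and 3 in CL4-TCR cells, with sums of 1965, 2183 and 1646, mostly Xbp1. Jchain, the antibody joining chain gene, had 177.7 in VILLIN-HA/CL4-TCR cells, 74.9 in Villin-HA + CL4-TCR cells and 61 in CL4-TCR cells, the order of the chosen Irf4 probe set, and was 2.91-fold higher in VILLIN-HA/CL4-TCR than in CL4-TCR cells. Mzb1 had 69.3, 28.9 and 36.5 on these arrays, and Sdc1 and Tnfrsf17 lay below the floor on all 3. Of 11 B cell markers, 7, 5 and 7 lay above the floor in VILLIN-HA/CL4-TCR, then Villin-HA + CL4-TCR, then CL4-TCR cells, with sums of 935.9, 673 and 581.5. Cd79a, Ebf1 and Fcrla lay at or below the floor on all 3, and Ms4a1, which encodes CD20, had 147.2 in VILLIN-HA/CL4-TCR cells, 52.5 in Villin-HA + CL4-TCR cells and 55.8 in CL4-TCR cells. Among 7 markers of conventional dendritic cells, Itgax alone was above the floor on either HA array, at 43.5 in VILLIN-HA/CL4-TCR cells and 430.7 in Villin-HA + CL4-TCR cells, and had 38.9 in CL4-TCR cells, while Xcr1, Flt3, Batf3 and Ccl22 were below it on all. The conventional dendritic cell sums were 135, 507.2 and 162.5 in the order VILLIN-HA/CL4-TCR, Villin-HA + CL4-TCR and CL4-TCR. Siglech, the defining marker of plasmacytoid dendritic cells, lay below the floor on all 3 arrays, and the sum of their 7 markers, 5718 in VILLIN-HA/CL4-TCR cells, 5595 in Villin-HA + CL4-TCR cells and 3333 in CL4-TCR cells, was mostly Ccr9, a gut-homing receptor that T cells make too. The part of these cells in the Irf8, Irf4 and Irf5 signals was not tested.

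**Figure D2:**
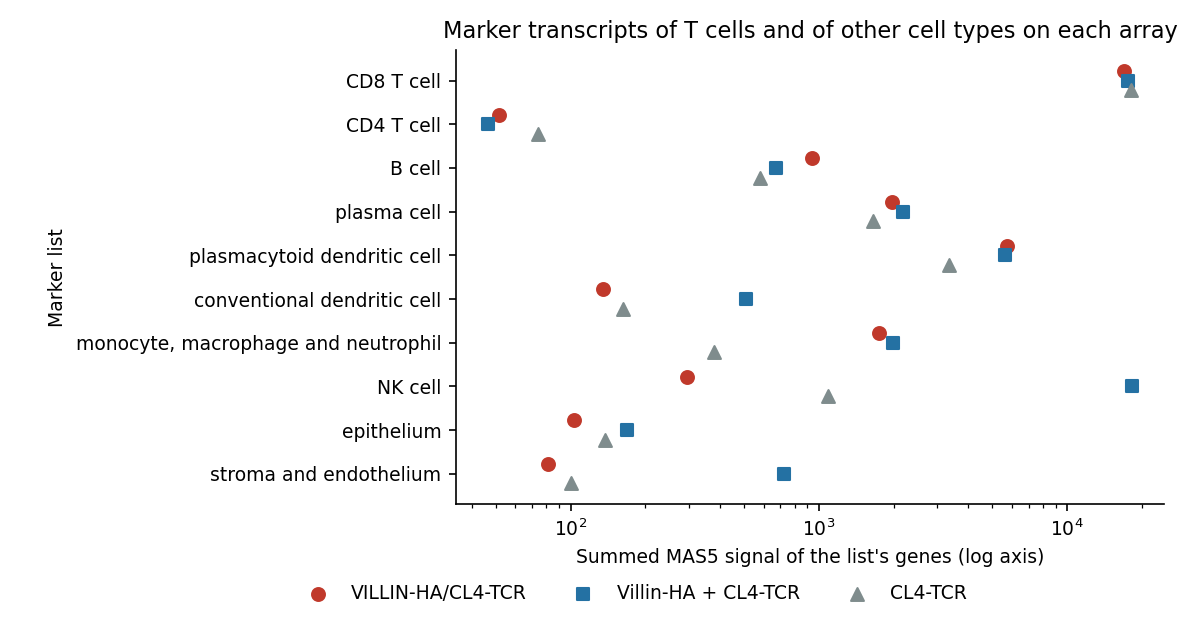
Summed MAS5 signal on a log axis (horizontal) of the genes of each marker list (vertical), with 1 symbol per array. CD8 T cell markers lie between 16913 and 18126 on all arrays, and monocyte, macrophage and neutrophil markers are at 1740 and 1984 on the HA arrays and at 379 in CL4-TCR cells. Stroma and endothelium markers are highest in Villin-HA + CL4-TCR cells, at 722.2. The NK cell list holds Gzma, which CD8 effector cells also make.

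Irf5, which acts downstream of Toll-like receptors in myeloid cells, was weakly measured. Its chosen probe set had 67.9 in VILLIN-HA/CL4-TCR cells, 74.3 in Villin-HA + CL4-TCR cells and 33.6 in CL4-TCR cells, the last just above the floor. These are folds of 2.02 and 2.21 over CL4-TCR. The other probe set gave 60, 39.1 and 57.3 in VILLIN-HA/CL4-TCR, then Villin-HA + CL4-TCR, then CL4-TCR cells, with log2 differences of 0.07 and -0.55 from CL4-TCR, so the probe sets disagreed in direction for Villin-HA + CL4-TCR. With both probe sets taken by their median, the differences were 0.54 and 0.30 and neither was counted. With a floor of 68.6, the 65th percentile, Irf5 was not measured for VILLIN-HA/CL4-TCR and had 0.12 for Villin-HA + CL4-TCR, and with an offset of 32 the differences were 0.61 and 0.70. When all arrays had the same median, the second was 0.94. In the RefSeq gene table Irf5 overlaps Tnpo3, a nuclear import receptor gene. Tnpo3 had 580 in VILLIN-HA/CL4-TCR cells, 286.3 in Villin-HA + CL4-TCR cells and 513.8 in CL4-TCR cells. This is the order of the other Irf5 probe set and not of the chosen one. Which of the transcripts a probe set reads was not determined.

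Irf7 moved in opposite directions on the HA arrays. It had a signal of 162.9 in VILLIN-HA/CL4-TCR cells, 819.3 in Villin-HA + CL4-TCR cells and 371.1 in CL4-TCR cells, by its only probe set. VILLIN-HA/CL4-TCR cells were 2.28-fold lower (log2 difference -1.19) than CL4-TCR cells, whereas Villin-HA + CL4-TCR cells were 2.21-fold higher (1.14). Between the HA arrays the difference was 5.03-fold, lower in VILLIN-HA/CL4-TCR cells (-2.33), the largest among the 8 genes in that comparison. Relative to arrays scaled to the same median, the Villin-HA + CL4-TCR difference from CL4-TCR was 0.94, just short of 2-fold.

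Irf9, the DNA-binding part of the type I interferon response complex, was low in VILLIN-HA/CL4-TCR cells. Its only probe set had signals of 332.1 in VILLIN-HA/CL4-TCR cells, 603.1 in Villin-HA + CL4-TCR cells and 649.6 in CL4-TCR cells. The log2 difference from CL4-TCR was -0.97 for VILLIN-HA/CL4-TCR, just short of 2-fold, and -0.11 for Villin-HA + CL4-TCR, within the probe set SD. Its partner Stat2 had 82.6, 91.6 and 81.3 in VILLIN-HA/CL4-TCR, then Villin-HA + CL4-TCR, then CL4-TCR cells, with log2 differences from CL4-TCR of 0.02 and 0.17.

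Irf1, an activator induced by interferon gamma, was highest in CL4-TCR cells. Its signal was 1326 in VILLIN-HA/CL4-TCR cells, 2169 in Villin-HA + CL4-TCR cells and 2689 in CL4-TCR cells, by 1 probe set. The VILLIN-HA/CL4-TCR array was 2.03-fold below the CL4-TCR array (log2 difference -1.02), and when all arrays had the same median this was -0.96 and no longer counted. The Villin-HA + CL4-TCR array differed from CL4-TCR by -0.31, within the probe set SD of 0.65.

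Irf2, which represses sites that Irf1 activates, was lowest on the other HA array. It had 161.3 in VILLIN-HA/CL4-TCR cells, 96.9 in Villin-HA + CL4-TCR cells and 195.2 in CL4-TCR cells. The fold below CL4-TCR was 2.01 in Villin-HA + CL4-TCR cells (log2 difference -1.01), and it was no longer counted after quantile normalization (-0.97) or with an offset in place of the floor (-0.82). The difference of VILLIN-HA/CL4-TCR from CL4-TCR was -0.28, within the probe set SD of 0.43.

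Irf3, a factor present in resting cells and activated by phosphorylation, was read by 4 probe sets that disagreed. The brightest had 890.1 in VILLIN-HA/CL4-TCR cells, 707.9 in Villin-HA + CL4-TCR cells and 1291 in CL4-TCR cells, with log2 differences of -0.54 and -0.87 from CL4-TCR, both short of 2-fold. A second had 84.5 in VILLIN-HA/CL4-TCR cells, 19 in Villin-HA + CL4-TCR cells and 252 in CL4-TCR cells, so it was 2.98-fold and at least 7.95-fold below CL4-TCR. The third had 83.6, 37.9 and 190.2 in VILLIN-HA/CL4-TCR, then Villin-HA + CL4-TCR, then CL4-TCR cells. These 3 probe sets put the CL4-TCR array highest and the Villin-HA + CL4-TCR array lowest. The fourth had 50.2 in VILLIN-HA/CL4-TCR cells, 189 in Villin-HA + CL4-TCR cells and 39.5 in CL4-TCR cells, and was 4.78-fold higher in Villin-HA + CL4-TCR cells than in CL4-TCR cells (log2 2.26). The array on which this probe set stood apart is also the one with the low Gapdh 3′ to 5′ ratio of 3.35. Its beta-actin ratio of 1.80 was near the 2.46 in VILLIN-HA/CL4-TCR cells and the 1.98 in CL4-TCR cells. The part of transcript ends in the disagreement was not tested. Of the 4, only the second has an identifier without a suffix for possible matches to several transcripts.

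**Figure D3:**
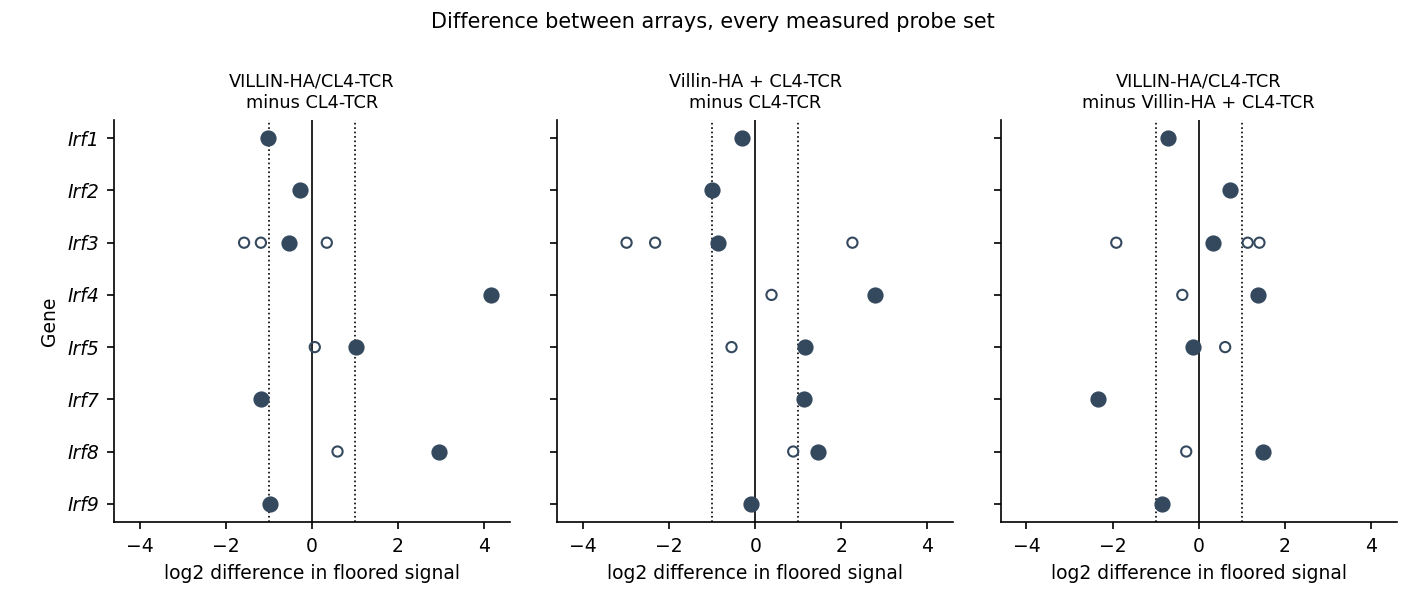
Log2 difference in floored signal (horizontal) for every measured probe set of the 8 genes (vertical) in the 3 comparisons, filled for the chosen probe set and open for the others; dotted lines mark 2-fold. Irf4 reaches 4.16 in the first comparison, Irf7 lies on opposite sides of 0 in the first and second, and the Irf3 probe sets spread from -2.99 to 2.26 in the second.

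Promoter sequence of 5 members is shown because these genes had large differences by their chosen probe sets (Irf4, Irf7 and Irf8) or hold a motif that interferon signals act through (Irf1, Irf2 and Irf8). Each stretch is the 250 bases before a transcript start in RefSeq on build GRCm38.p6, read 5′ to 3′ on the strand of the gene. They lie at chr11:53769764-53770013 for Irf1, chr8:46739495-46739744 for Irf2 and chr8:120736108-120736357 for Irf8, all on the plus strand. Those of Irf4 and Irf7 lie at chr13:30748983-30749232 on the plus strand and chr7:141266425-141266674 on the minus strand. Capitals mark the gamma-activated site TTCNNNGAA and in Irf2 also the interferon-stimulated response element (GAAA, any 2 bases, GAAA) with the overlapping shorter core AANNGAAA.
Irf1: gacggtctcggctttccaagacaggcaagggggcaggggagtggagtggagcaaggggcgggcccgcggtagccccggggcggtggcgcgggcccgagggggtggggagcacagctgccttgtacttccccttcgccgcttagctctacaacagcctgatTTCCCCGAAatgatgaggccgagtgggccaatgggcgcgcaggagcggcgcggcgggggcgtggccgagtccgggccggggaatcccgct
Irf2: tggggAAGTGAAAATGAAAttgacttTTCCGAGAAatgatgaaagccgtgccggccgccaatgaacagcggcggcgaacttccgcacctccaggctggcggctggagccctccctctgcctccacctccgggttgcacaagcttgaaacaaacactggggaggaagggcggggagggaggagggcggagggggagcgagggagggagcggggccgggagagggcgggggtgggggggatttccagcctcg
Irf8: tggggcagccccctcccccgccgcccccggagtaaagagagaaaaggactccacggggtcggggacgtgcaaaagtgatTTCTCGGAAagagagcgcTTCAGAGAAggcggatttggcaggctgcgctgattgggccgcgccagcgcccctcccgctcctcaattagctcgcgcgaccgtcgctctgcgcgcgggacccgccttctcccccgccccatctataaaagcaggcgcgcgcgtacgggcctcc
Irf4: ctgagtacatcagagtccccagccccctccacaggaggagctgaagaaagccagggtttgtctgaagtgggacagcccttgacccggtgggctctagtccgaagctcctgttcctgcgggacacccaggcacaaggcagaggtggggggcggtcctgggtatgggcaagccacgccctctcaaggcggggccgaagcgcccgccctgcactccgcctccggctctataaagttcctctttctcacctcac
Irf7: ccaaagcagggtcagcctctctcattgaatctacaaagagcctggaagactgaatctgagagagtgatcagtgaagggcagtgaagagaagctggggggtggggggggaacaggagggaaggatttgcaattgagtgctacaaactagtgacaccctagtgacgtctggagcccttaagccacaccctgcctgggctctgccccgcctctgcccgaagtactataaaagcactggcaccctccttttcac
In windows of 300 bases, 250 before and 50 after the start, searched on both strands, the gamma-activated site was found in 8.3% of all 32851 promoters and the response element in 3.44%. Irf1 had 1 gamma-activated site, TTCCCCGAA, from position -90 to -82. Irf8 had a pair, TTCTCGGAA from -171 to -163 and TTCAGAGAA from -153 to -145. Irf2 had the response element GAAAATGAAA from -241 to -232 and the site TTCCGAGAA from -224 to -216, and the core AANNGAAA, present in 23.9% of promoters, matched in a pair of overlapping places there. The remaining promoters of the family, those of Irf4 and Irf7 included, held none of these 3 motifs in their windows. The AP-1 motif TGANTCA, in 7.81% of all promoters, was in none of the 11 windows of the 8 genes, and the NF-kappaB consensus, in 8.46%, was in those of Irf1 and Irf2.

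Genes that act with these factors were read from 10 lists with 154 different names, of which 141 had a probe set of their own. The others were not analysed here. The lists were chosen with earlier results of these data known, so their counts and medians describe the arrays and are not independent support. One list holds genes of the T cell receptor and NF-kappaB signals that induce Irf4, including genes that these signals induce, such as Nr4a1. Of 10 measured, 6 were higher and 1 lower in VILLIN-HA/CL4-TCR cells than in CL4-TCR cells. The median log2 difference was 1.45 against -0.04 over all genes. Nr4a1, an orphan nuclear receptor induced by the T cell receptor, was 15.1-fold, Egr2 7.79-fold and Egr3 6.91-fold higher, and Malt1, a protease of NF-kappaB signalling, was 2.68-fold lower. In Villin-HA + CL4-TCR cells, 3 were higher than in CL4-TCR cells and 1 lower (median 0.32 against 0.06). These were Rel, an NF-kappaB subunit known to drive Irf4 (11.6-fold), Nr4a1 (10.3-fold) and Nfkb2 (4.15-fold), with Malt1 3.52-fold lower. Between the HA arrays, Egr2 was 8.21-fold higher and Rel 3.58-fold lower in VILLIN-HA/CL4-TCR cells than in Villin-HA + CL4-TCR cells. Irf4 itself was 2.62-fold higher there by its chosen probe set, and Egr3 was 4.23-fold higher.

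The binding partners of Irf4 and Irf8 were read as another list. Of 15 measured, 2 were higher and 2 lower in VILLIN-HA/CL4-TCR cells than in CL4-TCR cells (median 0.30 against -0.04 over all genes). In Villin-HA + CL4-TCR cells, 6 were higher than in CL4-TCR cells and none lower (median 0.23 against 0.06). The shares counted among all genes were 14.1% and 21.4%. Batf, with which Irf4 binds composite sites in T cells, had 203.2 in VILLIN-HA/CL4-TCR cells, 545.6 in Villin-HA + CL4-TCR cells and 165.4 in CL4-TCR cells. Jun had 22.4, 450 and 27.9 on the same arrays and Junb 103.2, 798.9 and 79.7. All 3 of these partners were thus high in Villin-HA + CL4-TCR cells alone, by 3.30-fold for Batf, at least 14.2-fold for Jun and 10.02-fold for Junb over CL4-TCR. By its chosen probe set, Irf4 was highest in VILLIN-HA/CL4-TCR cells. So was Jund, another Jun gene of the list, with 3437.4 in VILLIN-HA/CL4-TCR cells, 2423.6 in Villin-HA + CL4-TCR cells and 2062.5 in CL4-TCR cells. The Jund differences from CL4-TCR were short of 2-fold. Nfatc1, a calcium-dependent factor, had log2 differences from CL4-TCR of 0.91 in VILLIN-HA/CL4-TCR cells and 1.16 in Villin-HA + CL4-TCR cells. Swap70, whose protein restrains Irf4, was at least 3.83-fold and at least 4.62-fold higher than in CL4-TCR cells, and its relative Def6 was 2.35-fold lower in VILLIN-HA/CL4-TCR cells. Ikzf3, also of the list, was higher than in CL4-TCR cells on both HA arrays, 3.54-fold in VILLIN-HA/CL4-TCR and 5.09-fold in Villin-HA + CL4-TCR cells. Batf3 lay below the floor on all arrays, and Spi1, the PU.1 partner of Irf4 and Irf8 in B and myeloid cells, had 40.9 in VILLIN-HA/CL4-TCR cells, 55.9 in Villin-HA + CL4-TCR cells and 43 in CL4-TCR cells.

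Effector genes in whose expression Irf4 takes part were higher for 8 of 16 measured in VILLIN-HA/CL4-TCR cells and 13 of 17 in Villin-HA + CL4-TCR cells than in CL4-TCR cells, with none lower and medians of 1.15 and 2.56. Ctla4, an inhibitory receptor gene, was at least 14.2-fold and at least 132-fold higher, and Bhlhe40, a transcriptional regulator, at least 7.50-fold and at least 76.8-fold. Prdm1, which encodes Blimp-1, had 23.1 in VILLIN-HA/CL4-TCR cells, 214.5 in Villin-HA + CL4-TCR cells and 28.7 in CL4-TCR cells. Between the HA arrays 8 of 17 were lower in VILLIN-HA/CL4-TCR cells and none higher (median -0.76 against -0.06), among them Gzmb (245-fold). By its chosen probe set Irf4 was higher in VILLIN-HA/CL4-TCR cells there, and by the median of both probe sets its log2 difference was 0.51, short of 2-fold. A link between Irf4 and these genes was not tested. Of 8 naive and memory genes that Irf4 opposes, 5 were lower in VILLIN-HA/CL4-TCR cells than in CL4-TCR cells (Klf2, Eomes, Il7r, Ccr7 and Foxo1) and 4 in Villin-HA + CL4-TCR cells (Eomes, Bach2, Bcl2 and Lef1), none higher in either, with medians of -1.31 and -1.17. Eomes, a T-box factor of memory cells, was 5.38-fold and 10.9-fold lower.

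Upstream of Irf3, Irf5 and Irf7, the sensors and kinases differed little in VILLIN-HA/CL4-TCR cells, where none of 15 measured genes was counted against CL4-TCR. Their median was 0.01 against -0.04 over all genes, of which 14.1% were counted. Tbk1, the kinase that activates Irf3 and Irf7, had 2353 in VILLIN-HA/CL4-TCR cells, 2037 in Villin-HA + CL4-TCR cells and 3151 in CL4-TCR cells, and its relative Ikbke had 609.9, 734.3 and 979.2. Both were below the CL4-TCR array on each HA array by less than 2-fold. The RNA sensor genes Dhx58 (5.51-fold) and Ifih1 (3.81-fold), which interferon also induces, were higher in Villin-HA + CL4-TCR cells than in CL4-TCR cells. No gene of this list was counted lower there, and the list median was -0.26 against 0.06 over all genes. The type I interferon receptor and its signalling genes had 1 of 5 counted, Ifnar2, 4.83-fold lower in Villin-HA + CL4-TCR cells than in CL4-TCR cells. Of all genes, 21.4% were counted in that comparison. Ifng, the gene of interferon gamma, had 58.7 in VILLIN-HA/CL4-TCR cells, 631.5 in Villin-HA + CL4-TCR cells and 4.2 in CL4-TCR cells. Among the 6 measured genes of its receptor path, Jak2 was 2.12-fold higher and Socs3, a feedback inhibitor, 8.32-fold lower in VILLIN-HA/CL4-TCR cells than in CL4-TCR cells, while Ifng alone was counted in Villin-HA + CL4-TCR cells.

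Targets that answer type I interferon were read as a list. Of 25 genes listed as targets of the response element that Irf9 and its relatives read, 13 were higher and none lower in Villin-HA + CL4-TCR cells than in CL4-TCR cells. Their median was 1.15 against 0.06 over all genes. Whether the promoter of each listed gene holds the element was not examined. Ifi27l2a was 13.2-fold, Ifit3 11.5-fold and Mx1 10.1-fold higher. Of 23 measured in VILLIN-HA/CL4-TCR cells, 1 was higher (Ifi27l2a, 4.06-fold) and 1 lower (Oas2, 4.06-fold) than in CL4-TCR cells, and the median was -0.52 against -0.04. Between the HA arrays 18 of 25 were lower in VILLIN-HA/CL4-TCR cells and none higher, with a median of -1.69 against -0.06, led by Ifit3 (12.7-fold), Oas2 (7.69-fold) and Mx1 (7.12-fold).

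Among 21 measured genes induced by interferon gamma and Irf1, 7 were lower and 1 higher in VILLIN-HA/CL4-TCR cells than in CL4-TCR cells, with a median of -0.62 against -0.04. Psmb10 (3.17-fold lower), Psme1 (3.12-fold) and Psmb8 (2.37-fold) encode parts of the immunoproteasome and its activator, and Casp1 was 2.61-fold higher. In Villin-HA + CL4-TCR cells 2 were higher than in CL4-TCR cells, Cxcl10 (13.1-fold) and Cd274, which encodes PD-L1 (2.53-fold), and 1 was lower, Irgm2 (3.42-fold), with a median of 0.15. Between the HA arrays 5 of 21 were lower in VILLIN-HA/CL4-TCR cells and none higher (median -0.70).

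Co-repressors and negative regulators of the family had 1 of 12 lower and none higher in VILLIN-HA/CL4-TCR cells than in CL4-TCR cells, Irf2bpl (2.80-fold). In Villin-HA + CL4-TCR cells, 2 were higher than in CL4-TCR cells, Usp18 (3.33-fold), which blocks the type I receptor, and Irf2bp2 (2.48-fold), and 3 were lower, Nrros (3.18-fold), Irf2bpl (2.67-fold) and Irf2bp1 (2.56-fold). Irf2bp1 and Irf2bp2 encode relatives first described as partners of Irf2, and Irf2 was itself lower on that array. The medians of the 12 genes were -0.60 and -0.32, against -0.04 and 0.06 over all genes. The shares counted among all genes were 14.1% and 21.4%.

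**Figure D4:**
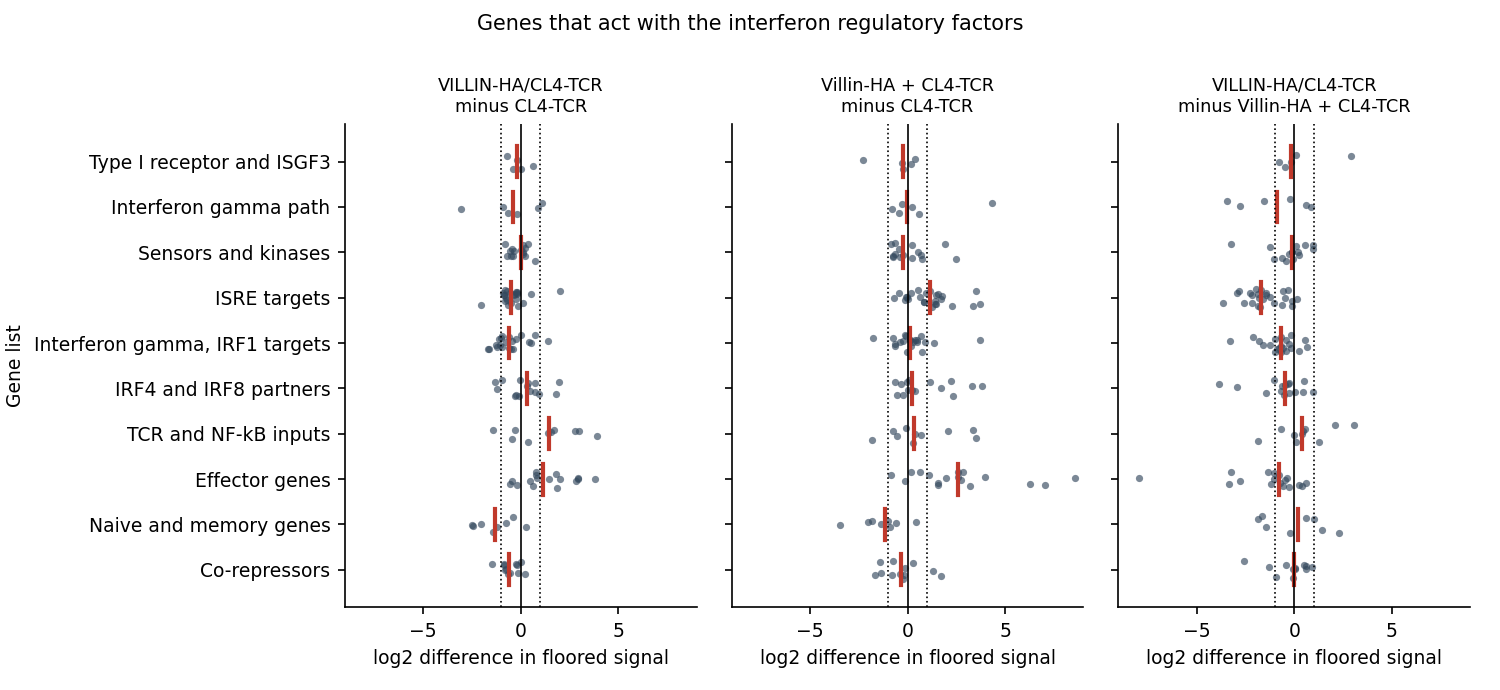
Log2 difference in floored signal (horizontal) of each measured gene (dots) of 10 gene lists (vertical) in the 3 comparisons, with the median of each list as a red bar and 2-fold as dotted lines; vertical scatter within a list is random. The response element (ISRE) targets have medians of -0.52, 1.15 and -1.69 from left to right.

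The genes nearest to each counted member were found by the distance between their pairs of log2 differences from CL4-TCR, over 3 arrays, which is few. Nearest to Irf4 were Tnfrsf9, the 4-1BB receptor gene, at a distance of 0.18, Ntn4 at 0.30 and Ikzf2, which encodes Helios, at 0.32. Tnfrsf9 had 853.4 in VILLIN-HA/CL4-TCR cells, 342.1 in Villin-HA + CL4-TCR cells and 53.1 in CL4-TCR cells. Nearest to Irf8 were Ptger2, a prostaglandin E2 receptor gene (0.13), Rida (0.29) and the macrophage gene Csf1r (0.31). For Irf7 they were Usp5 (0.09), Tbl3 (0.11) and Hcls1 (0.13), none of them in the lists above. For Irf1 they were Frmd8, Siah1a and Sec14l3, for Irf2 Dele1, Resf1 and Mllt10, and for Irf5 Blvra, Cwc15 and Mcm7, all within 0.05. Smaller differences have more genes near them, so these distances are not comparable between members.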

How the data were processed

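The authors deposited intensity values as MAS5 signals, per the submitters' processing notes, which give no version. Per the labels' protocols, biotin-labelled cRNA came from 6 µg of total RNA. The deposited values are linear, and each array has a trimmed mean of 150 over 45101 probe sets. The sources used here do not give background settings or detection calls. Probe sets with 1 gene symbol (34958) were named through Entrez identifiers in the GRCm38.p6 RefSeq gene table, which held 34754 of them. Several symbols (932) or none (9211) were not used. A gene was read by its probe set with the highest mean signal, after a floor at the median (31.7), in Python 3.11.15 with pandas 2.3.3. All members and probe sets are named, with up to 3 counted genes per list, direction and comparison, and direct partners. Other genes named were chosen after their values were seen. Members and lists were chosen with earlier results of these data known. The shorter core, AP-1 and NF-kappaB motifs were added after the sequences were seen. Calling was tested on simulated data, with changes larger than 2-fold in genes well above the floor. That test does not cover calls near the 2-fold line or near the floor. Protein sequences were not used here.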

Additional observations from a re-analysis of the deposited data

Results flagged for a closer look

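Irf7 was lower in VILLIN-HA/CL4-TCR cells and higher in Villin-HA + CL4-TCR cells, each by at least 2-fold from CL4-TCR, so the arrays of both HA groups moved in opposite directions. The log2 difference between the HA groups was -2.33, from signals of 162.9 in VILLIN-HA/CL4-TCR and 819.3 in Villin-HA + CL4-TCR cells. With 1 array per group this difference was not tested.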

How the results depend on the processing

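Results were recomputed under 6 alternatives. Of 131 log2 differences of single members, 118 moved by less than the SD between probe sets and 13 by more, and no counted one changed sign. The 118 include values that could not move. The median of probe sets returns the same value for Irf1, Irf2, Irf7 and Irf9, which have 1 probe set each. The higher floor does so where both signals lie above it. Leaving out probe sets of several matches does so for Irf4, Irf5 and Irf8. For VILLIN-HA/CL4-TCR minus CL4-TCR, 5 members were counted (3 higher, 2 lower). There were 4 (3 higher, 1 lower) once all arrays had the same median, where the lower one was Irf7. Leaving out probe sets with possible matches to several transcripts also gave 4 (3 higher, 1 lower), but the lower one was Irf3. There were 4 (2 higher, 2 lower, without Irf5) with a floor at the 65th percentile, an offset of 32 or the median of all probe sets. For Villin-HA + CL4-TCR minus CL4-TCR, the 5 counted (4 higher, 1 lower) became 3 with an offset of 32 and 4 with quantile normalization (4 higher). With a floor at the 65th percentile they became 4 (3 higher, 1 lower, Irf5 at 0.12). Irf3 was newly counted as lower without probe sets of several matches (4 counted, 3 higher, 1 lower) and with the same median (4 counted, 2 higher, 2 lower). It was also newly lower by the median of all probe sets (5 counted, 3 higher, 2 lower). With the same median, Irf5 and Irf7 were no longer counted. Between the HA arrays, the 3 counted (2 higher, 1 lower) became 1 by the median of all probe sets, Irf7, and 3 (all higher: Irf3, Irf4 and Irf8) without probe sets that have possible matches to several transcripts. That last setting leaves no value for Irf1, Irf2, Irf7 and Irf9, so it rests on 4 members. Of the pathway list genes, 53 were counted between the HA arrays (7 higher, 46 lower) and 50 with the same median (12 higher, 38 lower). For Villin-HA + CL4-TCR minus CL4-TCR, Irf3 (-2.99 without probe sets of several matches, -1.60 by the median of probe sets) was further from 0 than Irf4 (2.77 and 1.58). The cause of the other changes was not tested. No paired analysis was possible because each group holds 1 array, and no replicate could be left out. Irf4 and Irf5 lay close to the floor in CL4-TCR cells, which limits their folds.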

Other observations

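Neighbouring genes were read beside the members. Phrf1, which lies within 2 kb of Irf7, had signals of 355.2 in VILLIN-HA/CL4-TCR cells, 101.4 in Villin-HA + CL4-TCR cells and 440.4 in CL4-TCR cells, so the Villin-HA + CL4-TCR array was lowest for Phrf1 and highest for Irf7. Rnf31, within 2 kb of Irf9, had 94.9, 221.6 and 154.2 on the same arrays, and Bcl2l12, beside Irf3, had 80.4, 42.1 and 36.4.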
